A study of Mus musculus with 8 samples.

Results

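The genes Gfap, Vim, Cp, Aspg, Cd44, Osmr, Timp1 and Steap4, which are widely used as markers of reactive astrocytes, were followed gene by gene in hippocampal cells. They were picked by symbol, and each of the 8 matched 1 of the 55487 gene IDs of the count tables. Single hippocampal cells, sorted alive as CD45- Thy1-, were profiled in 1 library of Foxp3-DTR- mice (the DTRneg library) and 1 library of Foxp3-DTR+ mice (the DTRpos library), and both received Diphtheria toxin. In Foxp3-DTR+ mice the toxin receptor is carried by Foxp3-expressing cells, so that the toxin kills regulatory T cells. Each library held cells pooled from 2 mice, no age or sex is given in the labels, and with 1 library per group no test between the groups was possible. All intervals given in parentheses are exact 95% intervals for counting error only. Those of levels and ratios do not cover the clumping of UMIs in few cells. None of them covers variation between mice or between libraries.

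Reactive astrocytes are astrocytes that have altered their gene expression after injury, inflammation or disease, and a rise of the intermediate filament genes Gfap and Vim is their best known sign. Cytokines of the interleukin-6 family, among them oncostatin M, act through the shared receptor gp130 and the transcription factor STAT3 and are well known inducers of several of these genes. In the adult hippocampus, Gfap and Vim also mark the radial glia-like stem cells of the dentate gyrus, and Vim is a general filament gene of vessel and connective tissue cells. Counts here are unique molecular identifiers (UMIs), each standing for 1 captured RNA molecule, and levels are counts per 1 M UMIs of the cell class (CPM). The UMIs come from the 3' end of transcripts and capture differs between genes, so levels were compared between classes and libraries and not between genes.

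The DTRneg library gave 6864 cells after filters and doublet removal, with a median of 6003.5 UMIs per cell, and the DTRpos library gave 5691 cells with a median of 4509 UMIs. Only 18 cell barcodes occurred in both. Cells were clustered without the 8 genes, and 11 classes could be named from marker lists. Of the DTRneg and DTRpos cells, 943 and 1096 were astrocyte-like, 102 and 69 neural stem cell-like, 509 and 371 endothelial-like, 191 and 158 pericyte-like, and 63 and 54 fibroblast-like. The astrocyte-like class carried all 9 of its markers, which include Aqp4, Gja1 and Agt, in both libraries at a summed level of 18784 and 20331 CPM. The fibroblast-like class carried genes of the pericyte list at 11361 and 10396 CPM, beside fibroblast markers at 10455 and 9781 CPM. Of the pericyte list, Rgs5, Higd1b and Notch3 were at 0 there in both libraries. Depth was lower in DTRpos in each of these 5 classes, for example at a median of 3146.5 against 3791 UMIs in astrocyte-like cells.

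The genes lie apart in the genome, on 7 chromosomes of GRCm38 by the GENCODE annotation. Gfap lies at chr11:102887336-102900912 on the minus strand, Vim at chr2:13573927-13582826 on the plus strand, Cp at chr3:19957054-20009145 on the plus strand and Osmr at chr15:6813577-6874969 on the minus strand. Cd44 lies at chr2:102811141-102901665 on the minus strand, Aspg at chr12:112106679-112127559, Timp1 at chrX:20870166-20874735 and Steap4 at chr5:7960457-7982213, the last 3 on the plus strand. RefSeq promoter windows of 300 bases (GRCm38.p6, 250 bases before to 50 after the start of transcription) were found for all 8 genes, 9 windows in total. The core of STAT binding motifs, TTCNNNGAA, reads the same on both strands as a pattern, and it occurred in 2 of these 9 windows and in 8.30% of the 32851 RefSeq promoters of the same length. Both windows are shown because the motif sits in them, in a gene found mostly in astrocyte-like cells and in one found in pericyte-like cells alone. The capitals mark the motif, which begins 2 bases before the start of transcription in Gfap (chr11:102897151-102897450, minus strand) and 116 bases before it in Steap4 (chr5:7960222-7960521, plus strand).
Gfap: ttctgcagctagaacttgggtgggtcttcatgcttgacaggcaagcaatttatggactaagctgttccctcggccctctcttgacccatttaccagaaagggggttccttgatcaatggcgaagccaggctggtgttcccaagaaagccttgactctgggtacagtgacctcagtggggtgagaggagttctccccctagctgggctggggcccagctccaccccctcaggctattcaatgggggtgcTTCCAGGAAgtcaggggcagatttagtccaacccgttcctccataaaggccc
Steap4: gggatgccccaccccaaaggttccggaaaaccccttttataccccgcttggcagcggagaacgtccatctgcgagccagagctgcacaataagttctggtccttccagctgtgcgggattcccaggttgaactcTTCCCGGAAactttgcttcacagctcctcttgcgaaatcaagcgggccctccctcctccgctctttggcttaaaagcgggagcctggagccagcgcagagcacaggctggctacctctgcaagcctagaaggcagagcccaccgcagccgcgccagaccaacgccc
A match of these letters describes the sequence and is not evidence of a bound site.

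The genes differed in the classes where their levels were highest. Gfap was highest in neural stem cell-like cells, at 205 CPM in DTRneg and 314 CPM in DTRpos, followed by astrocyte-like cells at 128 and 155 CPM. Pericyte-like cells held no Gfap UMI in either library, and endothelial-like cells held 1 in each. Vim was highest in endothelial-like cells, at 1133 and 1090.2 CPM, and reached 364 and 390.1 CPM in neural stem cell-like cells. Its level in astrocyte-like cells was far lower, at 67.8 and 48.8 CPM. Pericyte-like (272 and 139 CPM), fibroblast-like (217 and 198 CPM), cycling progenitor-like (209 and 142 CPM) and neuroblast-like cells (173 and 130.4 CPM) formed a middle range whose neighbours overlapped in their intervals.

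The copper-carrying ferroxidase Cp (ceruloplasmin) had its highest level outside the astrocytes. It stood at 874 and 820.2 CPM in fibroblast-like cells, 461 and 523 CPM in pericyte-like cells, 147 and 120.0 CPM in oligodendrocyte precursor-like cells and 117 and 114 CPM in endothelial-like cells. In astrocyte-like cells only 3 Cp UMIs were found in DTRneg and 1 in DTRpos, a level of 0.831 and 0.284 CPM. Osmr, the oncostatin M receptor, was likewise highest in pericyte-like cells (100.5 and 105 CPM) and endothelial-like cells (76.8 and 85.9 CPM), whose intervals overlapped. Osmr in astrocyte-like cells stood at 14.1 and 7.37 CPM.

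The remaining 4 genes were close to the limit of detection. Cd44, a receptor for hyaluronan and osteopontin, gave 36 UMIs over all DTRneg cells and 32 over all DTRpos cells, of which 50.0% and 46.9% lay in astrocyte-like cells. Mature oligodendrocyte-like cells held 44.4% and 28.1% of the Cd44 UMIs, and unnamed cells 2.78% and 18.75%. Aspg, an asparaginase, gave 10 and 13 UMIs in all, and Timp1, an inhibitor of matrix metalloproteinases, gave 9 and 8. Steap4, a metalloreductase, gave 19 UMIs in the DTRneg library, all of them in pericyte-like cells, and none in the DTRpos library.

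**Figure D1:**
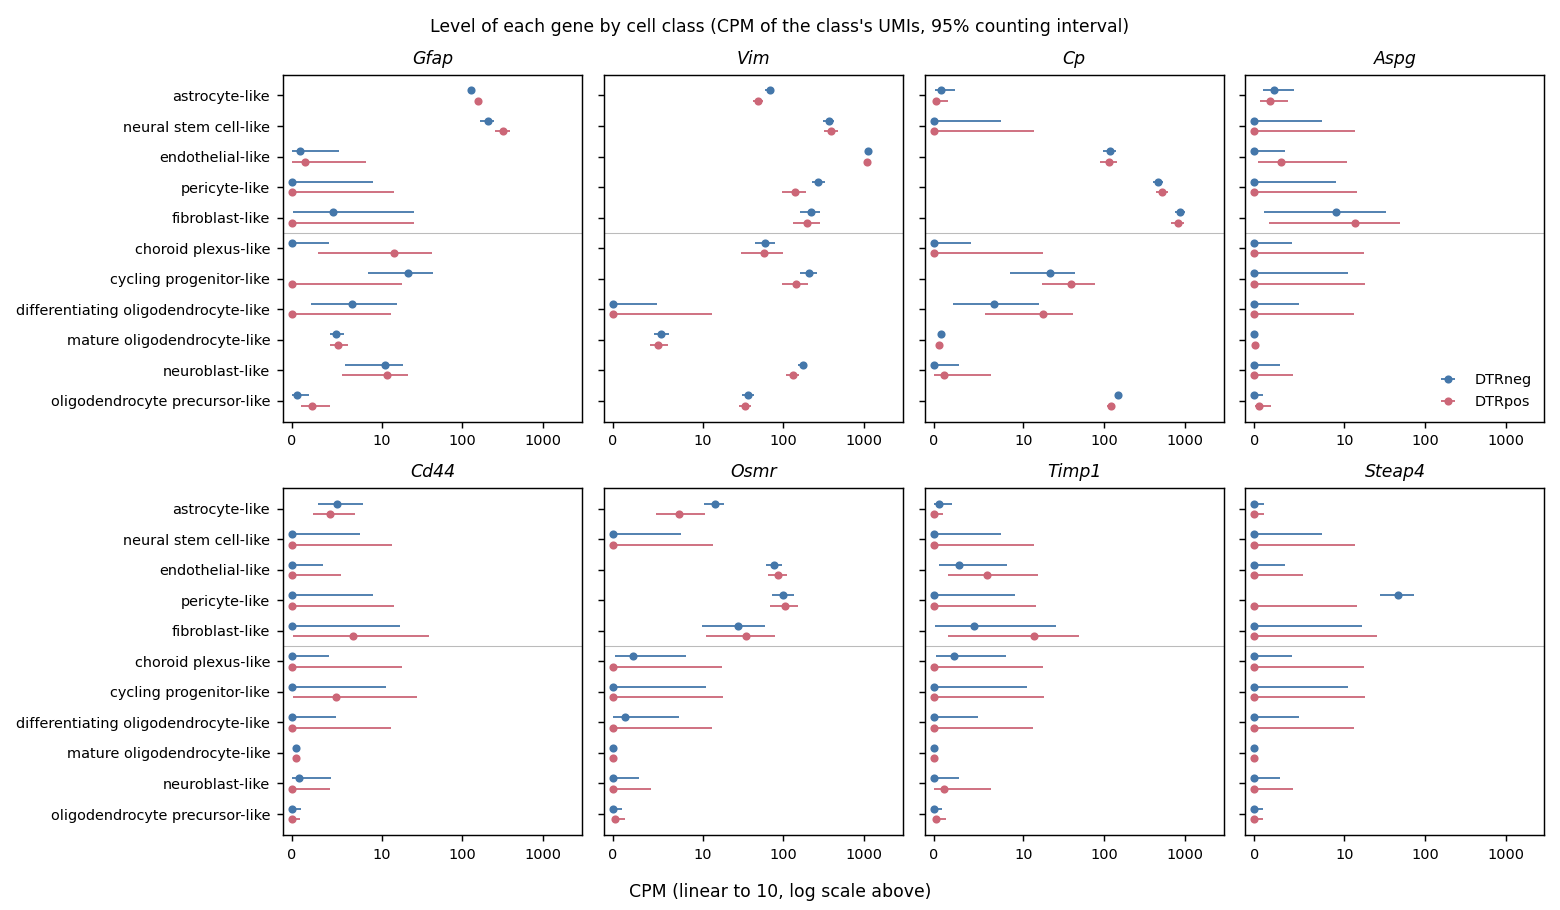
Level of each gene (CPM of the class's UMIs, linear to 10 and logarithmic above) in 11 cell classes of the DTRneg (blue) and DTRpos (red) library, with exact 95% counting intervals as bars. Gfap stands apart in astrocyte-like and neural stem cell-like cells (128 to 314 CPM), and Vim peaks in endothelial-like cells. Cp peaks in fibroblast-like cells and is also seen in pericyte-like, oligodendrocyte precursor-like and endothelial-like cells. Osmr is highest in pericyte-like and endothelial-like cells, and Steap4 is seen in DTRneg pericyte-like cells alone, at 46.6 CPM.

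Which genes shared these profiles was described by correlating levels, as log2(CPM + 10), over the 11 classes of both libraries, which gives 22 points that share libraries and depth. Among 4170 genes, those most like Gfap were St6galnac5 (Pearson's r = 0.979), Mlc1 (0.973) and Slc25a18 (0.971). The profile of Vim was matched less closely, by Dusp1 (0.882), Clic1 (0.876) and the filament gene Nes (0.872). Cp was most like Adm (0.962), Cnn2 (0.945) and Akap12 (0.943), and Osmr most like Adgre5 (0.978), Itga1 (0.970) and 4930523C07Rik (0.968). For the other 4 genes the nearest were Gjb2 (0.956) for Aspg, Edn3 (0.891) for Timp1, Rem1 (0.721) for Steap4 and Gpam (0.671) for Cd44, and these rest on few UMIs, since none of the 4 reached 100 CPM in any class.

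The comparison of DTRpos with DTRneg asks how hippocampal cells differ once regulatory T cells have been depleted. In astrocyte-like cells, Gfap was slightly higher and Vim and Osmr were lower in the DTRpos library, so the genes did not move together. A gene was counted in a class if it had at least 30 UMIs in both libraries together, and a 2-fold ratio of CPM stood in for a test. Of the 8 genes, 4 were counted in astrocyte-like cells, and 0 passed 2-fold, beside 1.47% of all 10482 genes counted in that class. Their median log2 ratio was -0.35, beside 0.03 for all genes counted.

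Gfap, the main filament protein gene of astrocytes, gave 461 UMIs in DTRneg astrocyte-like cells, or 128 CPM (116 to 140), and 546 UMIs in DTRpos, or 155 CPM (142 to 168). The log2 ratio of DTRpos over DTRneg was 0.28 (0.10 to 0.46). The share of cells with a Gfap UMI was nearly the same, 31.9% and 32.7%. After each cell was thinned to 1500 UMIs, it was 15.8% (13.3 to 18.5) and 18.4% (15.9 to 21.0), and these intervals overlap. In mature oligodendrocyte-like cells 4.48% and 4.06% of cells had a Gfap UMI at a median of 7578.5 and 6211 UMIs, against medians of 3791 and 3146.5 in astrocyte-like cells, and 0.487% and 0.914% did after thinning. Per 100 UMIs of the astrocyte markers, mature oligodendrocyte-like cells had 3.54 and 3.58 Gfap UMIs against 0.680 and 0.761 in astrocyte-like cells, so their share is not a measure of free astrocyte RNA alone. In endothelial-like cells, at a median of 1945 and 1599 UMIs, 0.196% and 0.270% of cells had a Gfap UMI. The astrocyte-like share lay far above that of both classes. Of the astrocyte markers, Gja1 and Agt were higher in DTRpos in the same cells, while Aqp4 was not (-0.01, -0.08 to 0.06). Gja1 stood at 1964 and 2282 CPM (0.22, 0.17 to 0.26) and Agt at 299 and 356 CPM (0.26, 0.14 to 0.37). All 9 astrocyte markers summed had a log2 ratio of 0.11. Of 10 homeostatic astrocyte genes, 6 were above 0 and 4 below, at a median of 0.14.

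Vim, which codes for vimentin and is raised with Gfap in many injury models, went the other way. Astrocyte-like cells held 245 Vim UMIs in DTRneg, or 67.8 CPM (59.6 to 76.9), and 172 in DTRpos, or 48.8 CPM (41.7 to 56.6), a log2 ratio of -0.48 (-0.77 to -0.19). The share of cells with a Vim UMI was 18.6% and 12.7%, and 8.91% (7.02 to 11.1) and 6.12% (4.67 to 7.86) after thinning. Its intervals for the level do not overlap between the libraries, while those for the thinned share do. Markers of neural stem cell-like cells moved with it within the astrocyte-like class, at a summed level of 958 CPM in DTRneg and 705 CPM in DTRpos with 1 of the 10, Tfap2c, at 0 in DTRpos, and endothelial markers at 51.2 and 18.1 CPM with none of the 8 at 0. Their part in the Vim difference was not tested.

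Osmr, the receptor subunit that pairs with gp130 to bind oncostatin M, showed the widest difference of the counted genes. Its 51 UMIs in DTRneg astrocyte-like cells, 14.1 CPM (10.5 to 18.6), stood against 26 in DTRpos, 7.37 CPM (4.82 to 10.8), a log2 ratio of -0.94 (-1.68 to -0.23). An Osmr UMI was found in 4.67% and 2.37% of cells, and after thinning in 2.13% (1.25 to 3.39) and 0.967% (0.443 to 1.83). In mature oligodendrocyte-like cells 0 of 3304 DTRneg cells and 1 of 2342 DTRpos cells had an Osmr UMI, so the few Osmr UMIs of astrocyte-like cells were not a level common to all classes. The ratio passed 2-fold in cells with at least 1000 genes (-1.13), and it was -0.52 with cells weighted equally.

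The interval of the Cd44 ratio held 0, with 18 UMIs in DTRneg and 15 in DTRpos (4.98 and 4.25 CPM, log2 ratio -0.23, -1.32 to 0.84). After thinning, which left 11 UMIs, the direction turned, with a log2 ratio of 1.19. Aspg gave 8 and 6 UMIs, Cp 3 and 1, and Timp1 2 and 0, all too few for a ratio. No Steap4 UMI was found in 943 and 1096 astrocyte-like cells, which allows a level of up to 0.831 and 0.851 CPM. Of the 8 markers, then, Gfap and Vim alone were found in more than 5% of astrocyte-like cells.

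**Figure D2:**
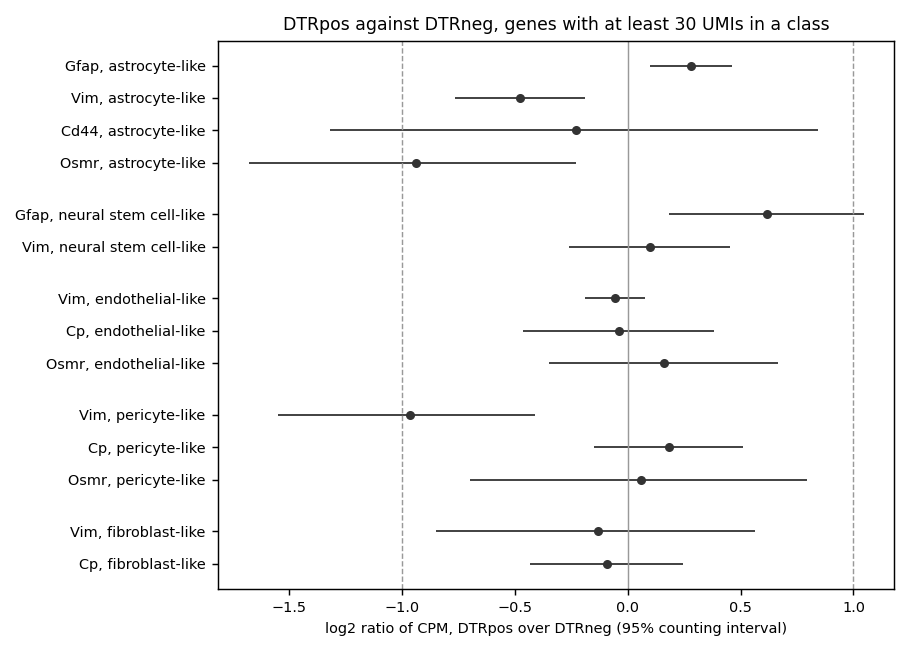
Log2 ratio of CPM, DTRpos over DTRneg, for the genes with at least 30 UMIs in each of 5 classes, with exact 95% counting intervals as bars and dashed lines at a 2-fold ratio. No point lies past a dashed line, and the intervals that leave out 0 are those of Gfap in astrocyte-like and neural stem cell-like cells (0.28 and 0.61), of Vim in astrocyte-like and pericyte-like cells (-0.48 and -0.96) and of Osmr in astrocyte-like cells (-0.94).

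Astrocyte-like cells fell into 2 clusters that differed in depth. The larger held 706 DTRneg and 859 DTRpos cells at a median of 4390.5 and 3486 UMIs, and the other 237 cells of each library at a median of 1420 and 1317 UMIs, or 25.1% (22.4 to 28.0) and 21.6% (19.2 to 24.2) of the astrocyte-like cells. Gfap was higher in the low-depth cluster, at 247 and 357 CPM against 113 and 131 CPM in the larger one. Aqp4, the water channel of astrocyte endfeet, was lower there, at 635 and 560.1 CPM against 920.2 and 919 CPM. Gja1, the gap junction gene, was lower as well, at 802 and 963 CPM against 2109 and 2436 CPM. The median mitochondrial share of a cell's UMIs was 5.51% and 4.89% in the low-depth cluster against 2.84% and 2.65%, and its part in the Gfap level was not tested.

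Within both clusters Gfap was higher in DTRpos. The log2 ratio was 0.22 (0.01 to 0.43) in the larger and 0.53 (0.14 to 0.92) in the low-depth cluster; the difference was thus present inside each cluster. Vim was lower in DTRpos in both, at 56.4 against 39.9 CPM in the larger cluster (-0.50, -0.84 to -0.16) and 160.0 against 124 CPM in the low-depth one (-0.36, -0.94 to 0.21). All Cd44 UMIs of the class lay in the larger cluster. The Osmr difference lay there too, with 48 and 22 UMIs (-1.10, -1.90 to -0.35), while the low-depth cluster had 3 and 4.

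Astrocytes also differ by Agt, which codes for angiotensinogen and marks some regions more than others. Cells with an Agt UMI (479 and 561) had 107 and 131 CPM of Gfap, a log2 ratio of 0.29 (0.03 to 0.55), and cells without one (464 and 535) had 157 and 186 CPM, a log2 ratio of 0.24 (-0.01 to 0.50). The ratios overlap in their intervals, and the level was higher in cells without an Agt UMI, which were also shallower (a median of 2884 and 2810 against 4357 and 3395 UMIs). For Vim, the log2 ratio was -0.77 (-1.20 to -0.35) with Agt, at 63.8 and 37.4 CPM, and -0.21 (-0.62 to 0.20) without, at 73.6 and 63.7 CPM, and these intervals overlap. A further cluster of 40 and 56 low-depth cells with astrocyte markers, which stayed unnamed, had 7 and 8 Gfap UMIs, 84.1 and 88.7 CPM.

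**Figure D3:**
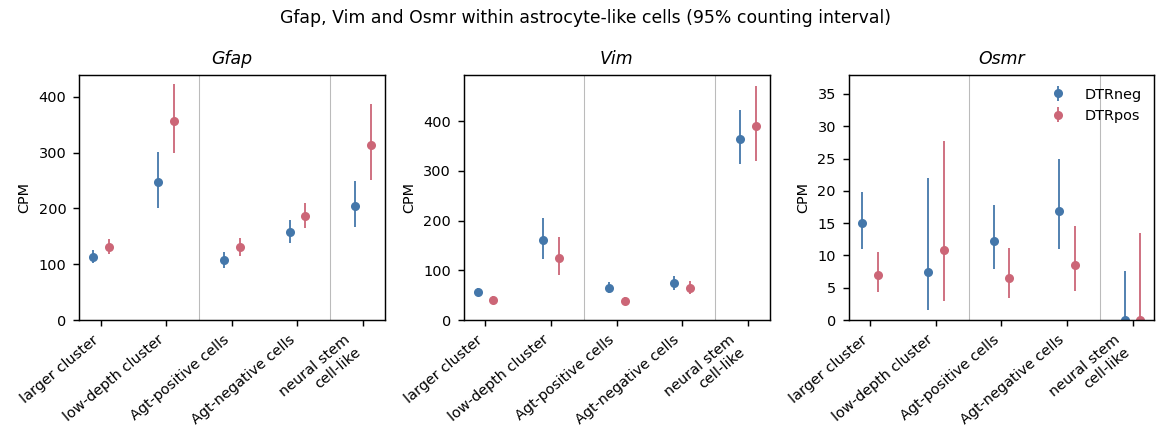
CPM of Gfap, Vim and Osmr in the 2 astrocyte-like clusters, in astrocyte-like cells with and without an Agt UMI, and in neural stem cell-like cells, for DTRneg (blue) and DTRpos (red) with exact 95% counting intervals as bars. Gfap is higher in DTRpos and Vim lower in DTRpos in each of the 4 astrocyte groups, while Osmr is lower in 3 of them and rests on 3 and 4 UMIs in the low-depth cluster.

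Whether the filament genes were found in the same cells was read after thinning. Among astrocyte-like cells with a Gfap UMI, 16 of 126 in DTRneg (12.7%, 7.44 to 19.8) and 18 of 171 in DTRpos (10.5%, 6.36 to 16.1) also had a Vim UMI. Among those without, the shares were 8.20% (6.23 to 10.5) and 5.13% (3.67 to 6.95). Vim was thus found more often beside Gfap in both libraries, with intervals that overlap. In neural stem cell-like cells the shares were 48.4% beside Gfap and 35.7% without it in DTRneg, and 46.7% and 28.2% in DTRpos.

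Neural stem cell-like cells had the highest Gfap of any class and the widest Gfap ratio of the classes where it was counted. The 100 Gfap UMIs of 102 DTRneg cells made 205 CPM (167 to 249), and the 86 UMIs of 69 DTRpos cells made 314 CPM (251 to 387). The log2 ratio was 0.61 (0.18 to 1.05), whose interval overlaps that of astrocyte-like cells. A Gfap UMI was found in 52.9% and 63.8% of cells, and after thinning in 30.7% (21.9 to 40.7) and 43.5% (31.6 to 56.0), which overlap. The 5 cells richest in Gfap held 26.0% and 29.1% of the UMIs. The low-depth cluster of astrocyte-like cells, a part of its class, had still higher Gfap levels. They were 247 CPM (201 to 301) and 357 CPM (299 to 424), and the intervals overlap those of neural stem cell-like cells.

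Vim in neural stem cell-like cells did not follow Gfap, with 178 and 107 UMIs, 364 CPM (313 to 422) and 390.1 CPM (320 to 471), a log2 ratio of 0.10 (-0.26 to 0.45). The other 6 genes had no UMI in this class in either library, which allows up to 6.14 CPM in DTRneg and 10.9 CPM in DTRpos. Of the 2 genes counted, 0 passed 2-fold, beside 4.19% of all 3964 genes counted there. Markers of mature oligodendrocytes stood at 2074 and 1203 CPM in this class with Klk6 at 0 in both, endothelial markers at 83.9 and 3.65 CPM with 7 of the 8 at 0 in DTRpos, and astrocyte markers at 12135 and 12753 CPM with none at 0. Genes induced by tissue dissociation were lower in DTRpos in this class, 10 of 12 counted below 0 with a median log2 ratio of -0.41 beside 0.05 for all genes. Their part in the Gfap difference was not tested.

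**Figure D4:**
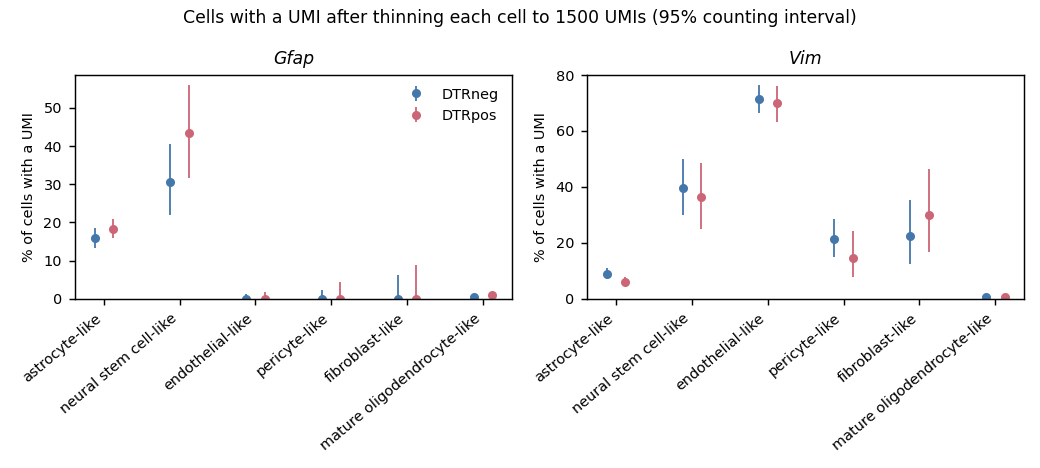
Share of cells with a Gfap or Vim UMI after each cell was thinned to 1500 UMIs, in 5 classes and in mature oligodendrocyte-like cells, for DTRneg (blue) and DTRpos (red) with exact 95% binomial intervals as bars. Gfap is found in 15.8% and 18.4% of astrocyte-like and 30.7% and 43.5% of neural stem cell-like cells and in under 1% of mature oligodendrocyte-like cells, and Vim is found most often in endothelial-like cells, at 71.6% and 70.0%.

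In endothelial-like cells all counted genes had ratios near 0. Vim gave 1210 and 736 UMIs, 1133 CPM (1070 to 1198) and 1090.2 CPM (1013 to 1172), a log2 ratio of -0.06 (-0.19 to 0.08). Cp gave 125 and 77 UMIs, 117 and 114 CPM, a log2 ratio of -0.04 (-0.47 to 0.38). Osmr gave 82 and 58 UMIs, 76.8 and 85.9 CPM, with a log2 ratio of 0.16 (-0.35 to 0.67), and 12.6% and 13.7% of cells had an Osmr UMI. All 3 intervals hold 0 and lie inside a 2-fold ratio, and with doublets kept the Vim and Cp ratios turned to 0.25 and 0.34. Of the 3 genes counted, 0 passed 2-fold, beside 2.92% of all 6538 genes. Timp1 had 3 and 4 UMIs, Aspg 0 and 2, and Cd44 and Steap4 none.

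In pericyte-like cells Vim was lower in the DTRpos library, while the ratios of Cp and Osmr were near 0. Cp gave 188 and 135 UMIs, 461 CPM (397 to 531) and 523 CPM (438 to 619), a log2 ratio of 0.18 (-0.15 to 0.51) that turned to -0.21 in cells with at least 1000 genes. Osmr gave 41 and 27 UMIs, 100.5 and 105 CPM, a log2 ratio of 0.06 (-0.70 to 0.79). Vim gave 111 and 36 UMIs, 272 CPM (224 to 328) and 139 CPM (97.6 to 193), a log2 ratio of -0.96 (-1.55 to -0.41). Of these 3 genes, 0 passed 2-fold, beside 3.91% of all 3786 genes counted, with Vim just inside it. The 5 cells richest in Vim held 45.9% and 41.7% of its UMIs.

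Smooth muscle genes of arterial vessels, Acta2 and Tagln, moved with Vim in this class, as was found after its values were seen. Acta2 stood at 441 and 69.7 CPM and Tagln at 252 and 101 CPM. The 23 DTRneg and 11 DTRpos cells with a UMI of either gene had Vim at 1041 and 720.0 CPM and held 61 of the 111 and 14 of the 36 Vim UMIs. In the 168 and 147 cells with neither, Vim was 143 and 92.1 CPM, 50 and 22 UMIs, with a log2 ratio of -0.64 (-1.43 to 0.11). Within the cells that carried either gene, the log2 ratio of Vim was -0.53 (-1.49 to 0.32). Vim was thus lower in DTRpos in both parts, and both intervals held 0 on fewer UMIs than in the whole class. The part of these cells in the Vim difference was not tested. Cp went the other way in the cells with a UMI of either gene, with 29 and 24 UMIs, 495 and 1234 CPM (1.32, 0.47 to 2.15), past 2-fold. The 5 cells richest in Cp held 62.1% and 75.0% of these UMIs. The share of all genes past 2-fold in so few cells was not computed. In the cells with neither gene, Cp was 455 and 465 CPM (0.03, -0.33 to 0.39). Mature oligodendrocyte markers also stood at 1870 and 639 CPM in the class, with Klk6 at 0 in DTRpos, and their part was not tested.

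Steap4, whose product reduces iron and copper at the cell membrane, was seen in 10 of 191 DTRneg pericyte-like cells (5.24%, 2.54 to 9.42) and 0 of 158 DTRpos ones, which allows up to 1.90% of cells with a UMI at this depth, a median of 1529 UMIs. The level was 46.6 CPM (28.0 to 72.7) from 19 UMIs in DTRneg. This DTRneg level was 4.01-fold the limit of 3 counts in the DTRpos class, 11.6 CPM. That ratio leaves out the counting error of the 19 UMIs, so it is not a lower bound. The 19 UMIs fall short of the 30 asked of a counted gene, and 73.7% of them lay in 5 cells. After thinning, 3 of 151 and 0 of 82 cells had one, whose intervals (0.412 to 5.70 and 0 to 4.40) overlap widely. Cells without Acta2 or Tagln UMIs held 12 of the 19.

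Fibroblast-like cells, the smallest class, showed no difference beyond counting error in the 2 genes counted. Cp gave 193 and 120 UMIs, 874 CPM (755 to 1006) and 820.2 CPM (680 to 981), a log2 ratio of -0.09 (-0.43 to 0.24). A Cp UMI was found in 76.2% and 63.0% of cells. Vim gave 48 and 29 UMIs, 217 and 198 CPM, a log2 ratio of -0.13 (-0.85 to 0.56), and neither passed 2-fold, beside 5.23% of all 2047 genes counted. Osmr had 6 and 5 UMIs, Aspg 2 and 2, Timp1 1 and 2, Cd44 0 and 1, Gfap 1 and 0, and Steap4 none. Both directions turned with the processing, Cp to 0.38 at Leiden resolution 2 and Vim to 0.64 after thinning.

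Cells outside these classes bear on Cp and Vim. Oligodendrocyte precursor-like cells, which held 49.1% and 56.7% of all Cp UMIs, had 552 and 484 of them, 147 CPM (135 to 160) and 120.0 CPM (109 to 131), a log2 ratio of -0.30 (-0.47 to -0.12). A Cp UMI was found in 49.6% and 40.0% of these cells, and in 19.0% (16.2 to 22.2) and 15.9% (13.5 to 18.5) after thinning. Markers of other cells also differed in this class, erythroid at 4513 and 46.1 CPM, choroid plexus at 329 and 28.3 CPM and pericyte at 18.9 and 5.45 CPM. Some lists were higher in DTRpos, such as fibroblast markers at 2.67 and 5.2 CPM. The part of these markers in the Cp value was not tested. Neuroblast-like cells had Vim at 173 and 130.4 CPM, a log2 ratio of -0.41 (-0.75 to -0.08), and 16.1% and 16.3% of them had a Vim UMI after thinning. Choroid plexus markers moved with Vim there, at 1187 and 34.6 CPM with 1 and 3 of 5 at 0. So did erythroid markers, at 2213 and 41.5 CPM with 0 and 1 of 5 at 0. Mature oligodendrocyte markers were lower too, at 1570 and 711 CPM with 1 of 9 at 0 in each. Endothelial markers went the other way, at 10.1 and 77.3 CPM with 2 of 8 at 0 in each. The part of these markers in the Vim value was not tested. The interval of the Vim ratio thus lay below 0 in astrocyte-like, pericyte-like and neuroblast-like cells. It held 0 in endothelial-like, neural stem cell-like and fibroblast-like ones, and whether these classes differ from each other was not tested. Oligodendrocyte precursor-like cells had 139 and 137 Vim UMIs of 3.75 M and 4.035 M UMIs. Mature oligodendrocyte-like cells had 174 and 102 of 32.06 M and 20.21 M.

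Other genes linked to these 8 were read from lists chosen with earlier results of these data known. Among the remaining pan-reactive genes (Lcn2, S1pr3, Hspb1, Cxcl10 and Serpina3n), 2 of 5 were counted in astrocyte-like cells and 0 passed 2-fold. Serpina3n, a serine protease inhibitor and a marker of reactive astrocytes, gave 25 and 26 UMIs, 6.92 and 7.37 CPM. The chemokine gene Cxcl10 gave 22 and 28 UMIs in 6 and 3 cells. In neural stem cell-like cells Cxcl10 gave 0 and 31 UMIs, and all 31 came from 2 cells. The DTRpos level was 18.4-fold the limit of 3 counts in DTRneg, a ratio that leaves out the counting error of the 31 UMIs. In endothelial-like cells it gave 28 and 108 UMIs in 10 and 7 cells, a log2 ratio of 2.61 whose interval lay above 0, with 98.1% of the DTRpos UMIs in 5 cells.

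The A1-type and A2-type lists, named for astrocyte states seen after inflammation and after ischaemia, had few genes counted in astrocyte-like cells. Only 1 of 12 genes of each was counted there, H2-D1 at 25.2 and 19.0 CPM (-0.41, -0.89 to 0.06) and S100a10 at 125 and 116 CPM (-0.11, -0.30 to 0.09). In neural stem cell-like cells the A2-type gene Ptx3, a pentraxin, gave 40 and 10 UMIs, a log2 ratio of -1.17 (-2.33 to -0.14). In endothelial-like cells Cd14, a co-receptor for bacterial lipopolysaccharide, gave 67 and 10 UMIs, a log2 ratio of -2.08 (-3.21 to -1.11), in 16 and 3 cells. Fbln5, of the A1-type list, gave 15 and 20 UMIs there, with all 20 DTRpos UMIs in 2 cells.

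Signalling genes of oncostatin M and gp130 lay on both sides of 0 in astrocyte-like cells. Of 18 genes, 9 were counted and 0 passed 2-fold, with 5 above 0, 4 below 0 and a median log2 ratio of 0.10. Cntfr, a receptor of ciliary neurotrophic factor, stood at 161 and 173 CPM (0.10, -0.06 to 0.27), and the kinase gene Jak1 at 127 and 119.7 CPM (-0.08, -0.28 to 0.11). In neural stem cell-like cells Il6st, which codes for gp130 itself, gave 12 and 21 UMIs, 24.6 and 76.6 CPM, a log2 ratio of 1.64 (0.55 to 2.80) spread over 12 and 17 cells.

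Endothelial-like cells, where the interval of the Osmr ratio held 0, had most of this list lower in DTRpos. There 8 of 11 counted genes lay below 0 with a median of -0.38, beside 0.03 for all genes, and 0 passed 2-fold. Socs3, the feedback inhibitor of STAT3 signalling, gave 125 and 43 UMIs, 117 and 63.7 CPM (-0.88, -1.41 to -0.37). Cebpd, a transcription factor gene induced by STAT3, gave 303 and 115 UMIs, 284 and 170.3 CPM (-0.74, -1.06 to -0.42). Genes induced by tissue dissociation were lower alongside them, 13 of 15 below 0 with a median of -0.23, and the part of this in the Socs3 and Cebpd values was not tested.

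Genes of iron and copper handling, the field of Cp and Steap4, lay above 0 in astrocyte-like cells. All 11 counted genes of 13 were above 0 in DTRpos, at a median of 0.20 beside 0.03 for all genes, and 0 passed 2-fold. The ferritin heavy chain gene Fth1 stood at 2386 and 2641 CPM (0.15, 0.10 to 0.19) and the light chain gene Ftl1 at 490.4 and 510.4 CPM (0.06, -0.04 to 0.15). In pericyte-like cells all 4 counted genes were above 0 as well, at a median of 0.15. In the other classes 4 of 8 were above 0 in endothelial-like cells and 1 of 4 in both neural stem cell-like and fibroblast-like cells.

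Counted genes of the filament, matrix and asparagine lists stayed within 2-fold in astrocyte-like cells. The filament linker Plec stood at 17.4 and 13.3 CPM and Lmna at 11.9 and 14.7 CPM. The metalloproteinase inhibitors Timp4, at 648 and 701 CPM (0.12, 0.03 to 0.20), and Timp3, at 378 and 407 CPM, were present while Timp1 gave 2 UMIs in all. Asrgl1, an asparaginase-like gene, stood at 571 and 603 CPM and Aga at 42.6 and 48.2 CPM. Among 10 homeostatic astrocyte genes 6 were above 0 and 4 below 0, with the glutamate transporter Slc1a2 at 6231 and 7355 CPM (0.24, 0.21 to 0.26) and Aldoc at 5259 and 5211 CPM. Of the dissociation stress genes Hspa1b alone passed 2-fold in astrocyte-like cells, with 28 and 6 UMIs and a log2 ratio of -2.19 (-3.75 to -0.89).

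In the mural and connective tissue classes some genes of the lists passed 2-fold. Of all genes counted, 3.91% passed it in pericyte-like and 5.23% in fibroblast-like cells. Whether the lists differ from these shares was not tested. Hspb1, a small heat shock protein gene of the pan-reactive list, stood at 2311 and 1638 CPM in pericyte-like cells (-0.50, -0.67 to -0.33). Hspa1b, of the dissociation list, was past 2-fold there (-1.02, -1.37 to -0.69), as was Slc1a2 with 10 and 27 UMIs (log2 ratio 2.09), all 27 in 5 cells. In fibroblast-like cells Spp1, the osteopontin gene and a partner of Cd44, stood at 4261 and 2146 CPM (-0.99, -1.18 to -0.80), just inside 2-fold. Of the dissociation list, 12 of 15 counted genes were above 0 there, at a median of 0.24 beside 0.03 for all genes, with Fosb (1.11) and Ier3 (1.11) past 2-fold, and Nr4a1 (-2.06) was past it in the other direction. In the same class the astrocyte gene Slc1a2 gave 55 and 5 UMIs in 4 and 4 cells. In neural stem cell-like cells Mmp14, a membrane-bound matrix metalloproteinase, gave 26 and 6 UMIs (-1.28, -2.85 to 0.03), and the dissociation gene Atf3 gave 14 and 19 UMIs (1.27, 0.20 to 2.38) in 7 and 5 cells. The other genes of the dissociation list mostly lay on the opposite side, with 10 of 12 counted genes below 0 in neural stem cell-like cells.

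**Figure D5:**
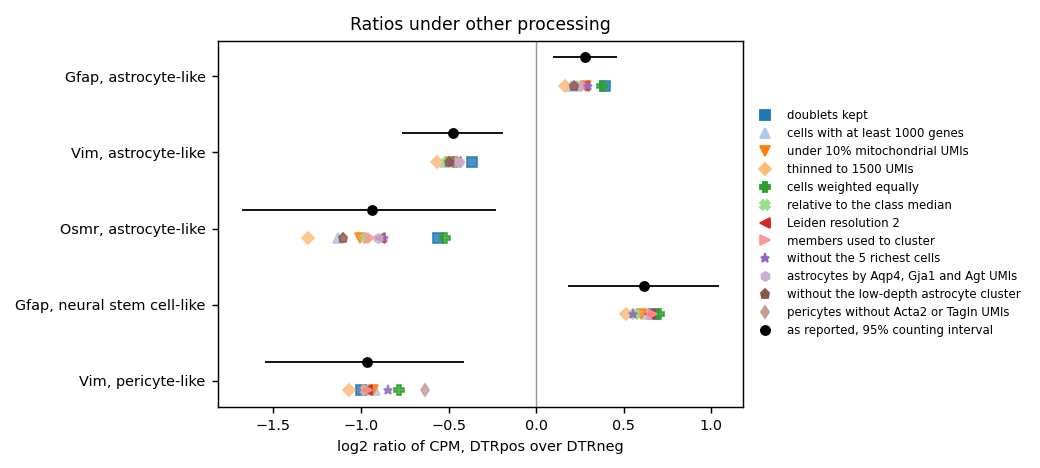
Log2 ratio of CPM, DTRpos over DTRneg, of 5 gene and class pairs as reported (black, with the exact 95% counting interval) and under other filters, clusterings and weightings (coloured marks). All marks of a pair lie on the same side of 0 as the reported value, from 0.17 to 0.39 for Gfap, -0.57 to -0.36 for Vim and -1.30 to -0.52 for Osmr in astrocyte-like cells.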

How the data were processed

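For each gene and barcode the deposited matrices give raw UMI counts, made with Cell Ranger 6.1.0 per the file headers, from libraries of a 3' protocol per the labels. The submitters' processing notes name mm10 and Seurat, and the annotation release is not given in the sources used here. Cells needed at least 500 genes and under 15% mitochondrial UMIs. Scrublet in Scanpy 1.11.5 marked 241 of 7105 and 158 of 5849 cells as doublets, which were removed. Both libraries were clustered together on 2000 variable genes without the 8 genes, mitochondrial, ribosomal and sex-linked genes (30 principal components, 15 neighbours, Leiden resolution 1) and gave clusters named "-like" from marker lists. No annotation of the authors was used here, so differences from the study may come from rebuilt names.

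UMIs were summed per class and library. Levels have exact Poisson, shares exact binomial and ratios exact conditional binomial 95% intervals (SciPy 1.17.1). The ratio intervals were run on simulated Poisson counts without cells. That run cannot show how they do where UMIs clump in few cells. A count of 0 allows up to 3 counts. From the lists, genes past 2-fold were named, at most 4 per list and class, or the 2 with most UMIs where none was, and the 3 genes most like each of the 8 were ranked. Values of some list genes outside this rule are not printed. The 8 genes and the lists were chosen with earlier results of these data known. Thinning to 1500 UMIs left out shallower cells, 146 and 165 astrocyte-like, 1 and 0 neural stem cell-like, 178 and 164 endothelial-like, 40 and 76 pericyte-like and 5 and 14 fibroblast-like in DTRneg and DTRpos. The meningeal T cell samples were not analysed here.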

Additional observations from a re-analysis of the deposited data

How the results depend on the processing

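No paired analysis was possible because each group is 1 library, and no library could be left out. Alternatives kept doublets, asked for 1000 genes or under 10% mitochondrial UMIs, thinned cells, weighted cells equally, centred on the class median, clustered at resolution 2 or with the 8 genes, left out the 5 richest cells, or took astrocytes by Aqp4, Gja1 and Agt UMIs. Leaving out the low-depth astrocyte-like cluster and the pericyte-like cells with Acta2 or Tagln UMIs were chosen after seeing the data. The sign was kept in 43 of 44 ratios in astrocyte-like, 17 of 18 in neural stem cell-like and 24 of 27 in endothelial-like cells. It was kept in 28 of 30 in pericyte-like and 9 of 18 in fibroblast-like cells, and in the last it thus depended on the processing. All alternatives reuse the same 1 library per group, so a kept sign settles no direction between the groups. The number of genes past 2-fold in astrocyte-like cells became 1, Osmr, with at least 1000 genes, with under 10% mitochondrial UMIs (-1.01) and without the low-depth cluster (-1.10), and in pericyte-like cells it became 1, Vim, after thinning (-1.07). Asking for 100 UMIs per gene lowered the percent of all genes past 2-fold to 0.216 in astrocyte-like, 1.30 in neural stem cell-like, 0.559 in endothelial-like, 0.980 in pericyte-like and 2.42 in fibroblast-like cells, from 1.47, 4.19, 2.92, 3.91 and 5.23. Depth limits Aspg, Timp1, Steap4 and Cd44, which gave at most 36 UMIs in a library.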
